A study of Mus musculus with 15 samples.

Results

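Retnla, Rnase2a and Ear3 encode secreted proteins linked to alternative activation of macrophages. They were followed as 3 of the 754 genes of an nCounter myeloid panel in mouse bone marrow-derived macrophages (BMDMs). The 3 genes were chosen by their difference between MPLA- and IL-4-exposed BMDMs, where they had the largest fitted decreases of all 754 genes, so that this difference is given here as a description, with no test. The nCounter assay counts barcoded probes hybridised to their target RNA, with no amplification step. BMDMs grown with M-CSF were exposed for 4 days to 20 ng/mL of monophosphoryl lipid A, a Toll-like receptor 4 agonist, as M1-like standards (MPLA, 4 samples), or to 20 ng/mL of IL-4 as M2-like standards (IL4, 4 samples). The remaining BMDMs, M2-like as well, received nanoparticles for 1 h at 1 µg by the labels (the methods of the study give another amount), loaded with IRF5 mRNA in IRF5-NP (samples 1, 2 and 4, n = 3) or with eGFP mRNA as a control in eGFP-NP (4 samples). Those methods add IKKβ mRNA (a kinase of IRF5) and some eGFP mRNA to the IRF5 particles. They also describe that the most strongly transfected cells were sorted and then kept in a lower dose of IL-4 until RNA was taken. This handling is described for nanoparticle-treated cells, so that nanoparticle, sort, time and IL-4 dose cannot be told apart in any difference between a nanoparticle group and IL4. The labels do not say whether the samples of a group came from separate animals or cultures, and p-values therefore measure the spread between these samples, which may be technical.

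IL-4 signals through its receptor and the transcription factor STAT6, and the genes it induces in mouse macrophages include secreted proteins, surface lectins and enzymes. Retnla encodes RELMα (FIZZ1), a small secreted protein of the resistin family that is a classic marker of IL-4-exposed mouse macrophages. Rnase2a and Ear3 belong to the mouse eosinophil-associated ribonucleases, a cluster of closely related secreted RNases of the RNase A family that is expressed by eosinophils and also by macrophages. Because these RNases are so alike, a probe for one of them may also bind another, and the Rnase2a and Ear3 counts are uncertain to that extent.

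In the mouse assembly GRCm38.p6, Retnla lies at chr16:48842609-48844461, next to its resistin-family relative Retnlb at chr16:48816856-48818892. Rnase2a, which has the synonym Ear11, lies at chr14:51255261-51256112, on the same chromosome as its relatives Rnase2b (chr14:51162260-51163018) and Ear6 (chr14:51853768-51854643). Ear3 is named only. The 250 bases before the RefSeq start of Retnla and of the 3 RNase genes are shown 5′ to 3′ on the strand of the gene, Retnla because it had the lowest fitted value and its window holds all 3 motifs searched, and the RNases because the window of Rnase2a is close to those of 2 relatives whose probes gave few counts. Capitals mark matches, on either strand, to the STAT6-type motif TTCNNNNGAA, the C/EBP-type motif TTGCNNAA or TATAAA.
Retnla (chr16:48842359-48842608, plus strand): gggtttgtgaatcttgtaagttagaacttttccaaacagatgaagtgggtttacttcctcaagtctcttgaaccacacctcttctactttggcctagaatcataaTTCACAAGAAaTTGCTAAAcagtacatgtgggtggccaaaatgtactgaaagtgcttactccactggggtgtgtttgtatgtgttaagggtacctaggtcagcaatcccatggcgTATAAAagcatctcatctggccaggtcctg
Rnase2a (chr14:51256113-51256362, minus strand): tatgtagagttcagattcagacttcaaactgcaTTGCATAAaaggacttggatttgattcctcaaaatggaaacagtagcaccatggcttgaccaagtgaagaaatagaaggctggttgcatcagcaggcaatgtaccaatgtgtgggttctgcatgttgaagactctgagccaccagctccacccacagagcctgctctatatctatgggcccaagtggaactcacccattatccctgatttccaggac
Rnase2b (chr14:51162010-51162259, plus strand): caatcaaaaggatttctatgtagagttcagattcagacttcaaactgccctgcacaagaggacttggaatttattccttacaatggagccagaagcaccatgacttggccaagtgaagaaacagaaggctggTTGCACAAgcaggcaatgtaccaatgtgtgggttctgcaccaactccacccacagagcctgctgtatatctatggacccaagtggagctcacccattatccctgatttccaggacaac
Ear6 (chr14:51853518-51853767, plus strand): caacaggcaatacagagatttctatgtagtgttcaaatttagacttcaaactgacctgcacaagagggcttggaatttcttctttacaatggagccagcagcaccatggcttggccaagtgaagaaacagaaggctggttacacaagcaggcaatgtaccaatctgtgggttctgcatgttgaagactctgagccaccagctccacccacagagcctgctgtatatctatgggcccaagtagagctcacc
The Retnla window held all 3 motifs: a STAT6-type match from 145 to 136 bases before the start, a C/EBP-type match from 134 to 127 bases before it, and TATAAA from 30 to 25 bases before it. The Rnase2a window held a C/EBP-type match from 217 to 210 bases before the start, the Rnase2b window a different one from 118 to 111 bases before the start, and the Ear6 window held no match. Such matches are common: of 32851 windows of the same length from 27025 genes, 5.85% held the STAT6-type motif, 9.56% the C/EBP-type motif and 12.4% TATAAA. The RNase windows were alike, with 91.3% identity between Rnase2a and Rnase2b (211 of 231 aligned bases) and 88.2% between Rnase2a and Ear6 (201 of 228).

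Gene counts summed to between 1087549 and 1784833 in MPLA and IL4 libraries, to 738305 to 1524232 in eGFP-NP, and to 1510011, 1417820 and 266169 in IRF5-NP 1, 2 and 4. The background limit of a library was the mean plus 2 SD of its 8 negative control probes, and lay between 19.7 and 34.9 counts. The libraries eGFP-NP 1 and 2 showed no difference that could be told from sampling noise and were summed into 1 sample (eGFP-NP 1-2), which left 14 libraries and an n of 3 in eGFP-NP. A further 4 pairs were nearly identical (IRF5-NP 1 with 2, eGFP-NP 3 with 4, MPLA 1 with 4 and MPLA 2 with 3), and the groups may therefore hold fewer cultures than their n. The macrophage markers Cd68, Csf1r and Adgre1 were above background in all 15 libraries, while 1 further listed marker, Aif1, was above background in none. Fibroblast genes split the IL-4-conditioned libraries: the mean of 6 stromal genes (Col1a2, Col3a1, Pdgfra, Pdgfrb, Timp3, Cdh11) was 3.90 to 4.17 log2 CPM (counts scaled to library size by TMM, on a log2 scale) in IL4 3, IRF5-NP 1, IRF5-NP 2 and eGFP-NP 1-2, and 9.85 to 11.51 in the other libraries of these groups, against 12.27 to 12.39 in MPLA. Irf5 counts were 205 to 2313 with the IRF5 cargo and 1046 to 2645 with the eGFP cargo; the delivered IRF5 message was codon-optimised and it is not stated whether the probe binds it, so these counts check no label.

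Retnla was abundant in M2-like BMDMs and unmeasurable in M1-like BMDMs. Its counts were 55590, 1532, 26941 and 13193 in IL4 1 to 4 and 10, 6, 11 and 9 in MPLA 1 to 4. In IL4 1, Retnla alone made up 5.11% of all gene counts, against 0.103% in IL4 2. All 4 IL4 libraries stood far above background and all 4 MPLA libraries below it. After nanoparticle treatment Retnla was low but measurable in most libraries, with 238, 228 and 5 counts in IRF5-NP 1, 2 and 4 and 123, 139, 55 and 39 counts in eGFP-NP 1 to 4. The 5 counts of IRF5-NP 4 were below background, in a library whose background limit of 32.4 counts corresponds to 70.5 CPM, so that a level like that of eGFP-NP 3 (53.8 CPM) could not have been seen there. Thus every nanoparticle library lay below every IL4 library, and 6 of 7 lay above background.

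Rnase2a had a similar pattern, with one IL4 library set apart. Its counts were 11454, 329, 15562 and 15945 in IL4 1 to 4, so that IL4 2 was more than an order of magnitude below the other IL4 libraries, which lay close together. In MPLA the counts were 12, 20, 18 and 29, all below background. In IRF5-NP 1, 2 and 4 they were 1259, 1212 and 16, and in eGFP-NP 1 to 4 they were 997, 1054, 137 and 124. The libraries IRF5-NP 1, IRF5-NP 2, eGFP-NP 1 and eGFP-NP 2 were therefore above IL4 2, and the groups overlapped. Of the nanoparticle libraries, IRF5-NP 4 was again the only one below background.

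Ear3 was the weakest of the 3 signals. It was above background in IL4 alone, with 78, 22, 687 and 168 counts in IL4 1 to 4, and the 22 counts of IL4 2 stood just over that library's limit of 20.3. Counts were 1 to 4 in MPLA, 12, 12 and 4 in IRF5-NP 1, 2 and 4, and 16, 11, 13 and 3 in eGFP-NP 1 to 4, all below background. Ear3 has therefore no measured level outside IL4, and differences from IL4 are bounds. The highest Ear3 level was in IL4 3, whereas the highest Retnla level was in IL4 1.

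**Figure D1:**
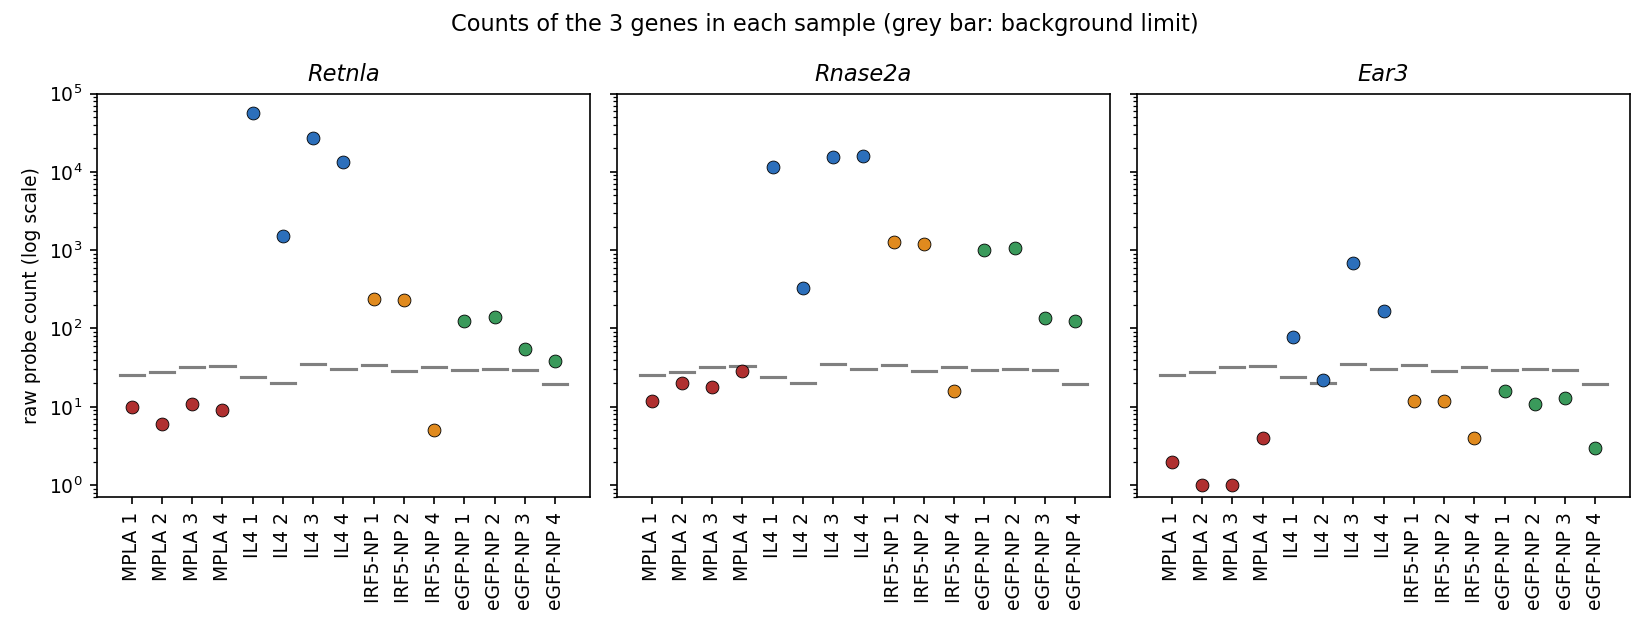
Raw probe counts (log axis) of Retnla, Rnase2a and Ear3 in the 15 samples, coloured by group, with the background limit of each library as a grey bar. IL4 1, 3 and 4 stand highest for each gene. IL4 2 is the lowest IL4 sample, and for Rnase2a it lies below IRF5-NP 1 and 2 and eGFP-NP 1 and 2. The MPLA samples lie below the bars for all 3 genes. In nanoparticle-treated samples Retnla and Rnase2a lie above the bars except in IRF5-NP 4, while Ear3 lies below them.

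By group mean Retnla and Rnase2a were highest in IL4 and at background in MPLA, with the nanoparticle groups between them. For Retnla the mean level was 13.33 ± 2.40 log2 CPM in IL4 (SD, n = 4), 6.36 ± 2.37 after IRF5-NP (n = 3), 6.07 ± 0.71 after eGFP-NP (n = 3) and 2.63 ± 0.24 in MPLA (n = 4). For Rnase2a the means were 12.08 ± 2.80, 8.48 ± 2.85, 8.03 ± 1.56 and 3.54 ± 0.47 log2 CPM in the same order. The nanoparticle groups overlapped for both genes and their order does not hold against this spread. IL4 and IRF5-NP overlapped for Rnase2a but not for Retnla, and the MPLA means lie at background, where a level only bounds the RNA. With the background limit of the MPLA libraries in place of their counts, the geometric mean in IL4 was at least 647-fold higher for Retnla, at least 271-fold higher for Rnase2a and at least 5.82-fold higher for Ear3. Single IL4 libraries moved these bounds. Without IL4 2 they were 1363-, 714- and 10.5-fold. Without IL4 1 the bound for Retnla was 385-fold, and without IL4 3 those for Rnase2a and Ear3 were 180-fold and 3.03-fold. In these bulk samples fewer cells that express a gene and less RNA per cell cannot be told apart.

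In the contrast that chose the genes, MPLA against IL4, the fitted log2 differences were -12.06 for Retnla, -9.65 for Rnase2a and -7.46 for Ear3. Just outside the choice stood Chil4 at -7.39 and Chil3 at -7.31. All 5 of these genes were below background in every MPLA library, so the fitted values rest on unmeasured MPLA levels, are no fold changes, and give no order between Ear3, Chil4 and Chil3. The bounds above are the measured part of the difference for the 3 members. By edgeR's quasi-likelihood test with Benjamini-Hochberg adjustment, 14.2% of all genes were lower and 12.2% higher in MPLA than in IL4, and 15.1% had all MPLA libraries below all IL4 libraries. No test of the 3 genes is given in this contrast, since it chose them.

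To ask whether the cargo of the nanoparticle mattered for these genes, IRF5-NP was compared with eGFP-NP, neither of which was used to choose them. No difference passed the test for any of the 3 genes, and the groups overlapped. The log2 difference was 0.94 ± 0.95 (SE) for Retnla (adjusted p = 0.834 by edgeR), 0.87 ± 1.29 for Rnase2a (adjusted p = 0.867) and 0.09 ± 0.51 for Ear3, which was below background in every library of both groups. edgeR called 0% of all 754 genes higher in IRF5-NP and none lower, with 42 genes at an unadjusted p under 0.05, and DESeq2 called 7. These values moved with the setting, with no call in any. With the replicate block, which pairs same-numbered samples, the difference was 0.26 for Retnla and turned to -0.39 for Rnase2a, and with the stromal covariate it was 0.06 and -0.57. Scaled to the positive controls it was 1.88 and 1.71. Leaving out 1 library gave 0.55 (without IRF5-NP 2) to 1.52 (without IRF5-NP 4) for Retnla and 0.45 (without IRF5-NP 2) to 2.37 (without eGFP-NP 1-2) for Rnase2a, so that no direction is given for either gene. The standard errors leave room for differences of several-fold in either direction for Rnase2a, so the result does not show that the cargoes act alike. Set side by side by number, Retnla made up 0.0158% of gene counts in IRF5-NP 1 against 0.00832% in eGFP-NP 1, and 0.0161% in IRF5-NP 2 against 0.00912% in eGFP-NP 2. Rnase2a made up 0.0834% against 0.0674% and 0.0855% against 0.0692% in the same libraries. In libraries numbered 4, IRF5-NP was below background for both genes and eGFP-NP above it. The near-identical pairs mean that the libraries numbered 1 and 2 may be a comparison of 1 culture of each kind.

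Retnla was lower in every nanoparticle library than in every IL4 library. These comparisons share the IL4 libraries with each other and with the contrast that chose the genes for their high IL4 values, so the differences from IL4 are a description and no test of the 3 genes is given in them. In IRF5-NP the log2 difference from IL4 was -7.31 ± 1.75 (SE) for Retnla. For Ear3 it was -4.45 ± 1.31 and for Rnase2a -3.67 ± 1.53. Retnla was lower in all 3 IRF5-NP libraries than in all 4 IL4 libraries, as were 4.38% of all genes, whereas Rnase2a overlapped through IL4 2. For Ear3 an overlap cannot be judged, since the background limits of the IRF5-NP libraries (26.1 to 70.5 CPM) lie above the 15.8 CPM of IL4 2. The geometric mean of Ear3 in IL4 was at least 2.43-fold higher than in IRF5-NP, by the background limit of the latter, and at least 1.27-fold higher without IL4 3, which held the most Ear3. Without IL4 2 this bound was 4.38-fold. edgeR called 0% of all genes lower in IRF5-NP than in IL4 and none higher, with 53 genes at an unadjusted p under 0.05, and DESeq2 called 19.

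In eGFP-NP the log2 difference from IL4 was -8.31 ± 1.54 (SE) for Retnla. For Rnase2a it was -4.59 ± 1.45 and for Ear3 -4.56 ± 1.36. Retnla had no overlap with IL4, as had 6.90% of all genes in this direction, and Rnase2a overlapped through IL4 2. For Ear3 the limits of the eGFP-NP libraries (22.8 to 28.8 CPM) again lie above IL4 2. Its geometric mean in IL4 was at least 3.56-fold higher by these limits, and at least 1.86-fold higher without IL4 3 or 6.42-fold without IL4 2. edgeR called 0% of all genes lower in eGFP-NP than in IL4 and none higher, with 84 genes at an unadjusted p under 0.05, and DESeq2 called 53.

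Because fibroblast genes split the libraries, the 3 genes were also set side by side among libraries of like stromal level, with no test. Among the libraries low in stromal genes, Retnla was 14.65 log2 CPM in IL4 3, 7.73 and 7.72 in IRF5-NP 1 and 2, and 6.88 in eGFP-NP 1-2. Rnase2a was 13.86 in IL4 3, 10.12 and 10.13 in IRF5-NP 1 and 2, and 9.83 in eGFP-NP 1-2. Among these libraries IL4 3 was therefore the highest for both genes. Among the libraries high in stromal genes, Retnla was 15.58, 10.11 and 12.98 log2 CPM in IL4 1, 2 and 4 against 5.79 and 5.54 in eGFP-NP 3 and 4, with IRF5-NP 4 below background. Rnase2a was 13.30, 7.90 and 13.25 in these IL4 libraries against 7.08 and 7.18 in eGFP-NP 3 and 4. IL4 libraries were thus above nanoparticle libraries within both sets, by a narrow margin for Rnase2a in IL4 2. Within each nanoparticle group, in contrast, Retnla and Rnase2a were higher in the stromal-low libraries, and the mean of the macrophage markers was also higher there (10.49 to 10.55 log2 CPM against 9.09 to 9.27). The summed count of the 6 stromal genes was 119352 to 137031 in MPLA, 113 to 57228 in IL4, 99 to 30149 in eGFP-NP and 98 to 8790 in IRF5-NP, and its part in the differences from MPLA was not tested.

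**Figure D2:**
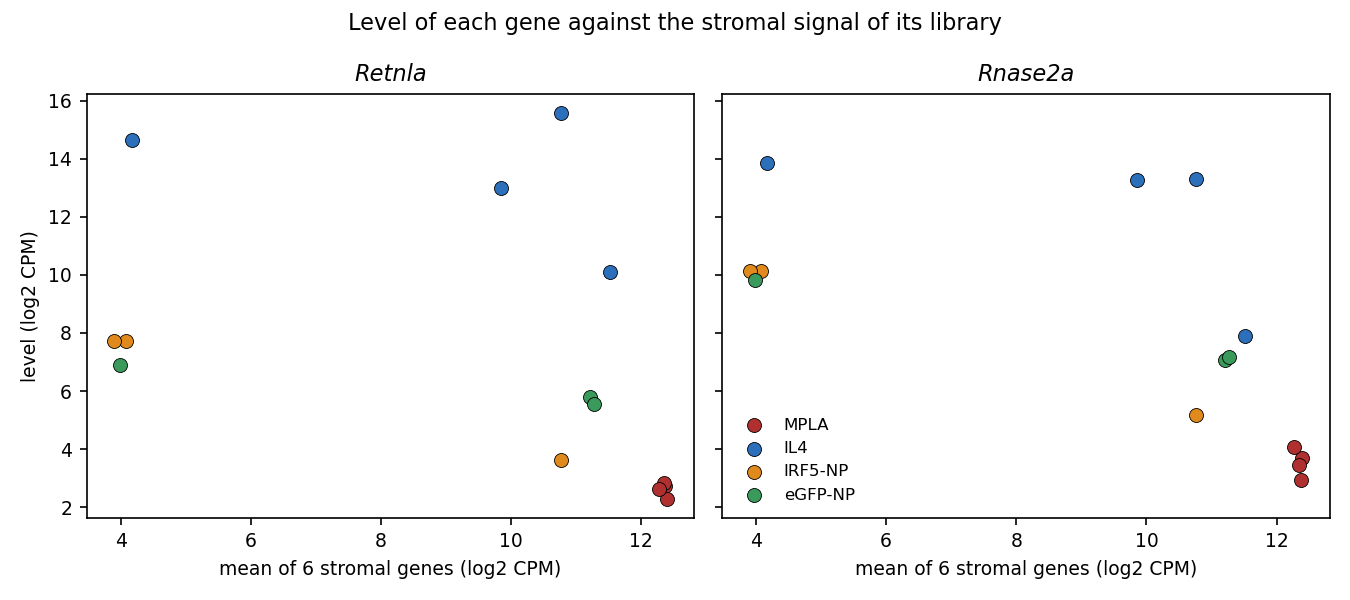
Level of Retnla (left) and Rnase2a (right) in log2 CPM against the mean log2 CPM of 6 stromal genes, 1 point for each of 14 libraries, coloured by group. IL4 points stand above nanoparticle points at low and at high stromal level, while the 4 MPLA points, at or below 4.07 for both genes, share the highest stromal level.

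Retnla and Rnase2a stood in different proportion in IL4 and in nanoparticle-treated libraries. The ratio of Rnase2a to Retnla counts within a library was 0.206, 0.215, 0.578 and 1.21 in IL4 1 to 4. It was 5.29 and 5.32 in IRF5-NP 1 and 2, and 8.11, 7.58, 2.49 and 3.18 in eGFP-NP 1 to 4, so every nanoparticle library with both genes above background was higher than every IL4 library. The ratio compares the same pair of probes across libraries and does not say which RNA is more abundant, since probes may differ in efficiency. On the log2 scale it was 1.98 ± 0.87 in eGFP-NP (SD, n = 3) and -1.25 ± 1.23 in IL4 (SD, n = 4), a difference of 3.24. eGFP-NP 3 and 4 are nearly identical, so these 3 values may come from fewer cultures. The usable IRF5-NP libraries 1 and 2, also nearly identical, had a mean of 2.41. With the mean of the negative controls subtracted from both counts, the ratio was 0.206 to 1.21 in IL4, 3.08 to 9.20 in eGFP-NP and 5.66 and 5.63 in IRF5-NP 1 and 2. The ratio was noticed after the counts were seen and involves the IL4 libraries that chose the genes, so it is a description with no test. Within IL4 the ratio of Ear3 to Rnase2a counts was 0.00681, 0.0669, 0.0441 and 0.0105 in IL4 1 to 4. With the negative controls subtracted it was 0.00518, 0.0316, 0.0432 and 0.00945, so that the highest library changed from IL4 2, whose Ear3 count lay just over background, to IL4 3, and IL4 1 and 4 stayed the lowest.

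**Figure D3:**
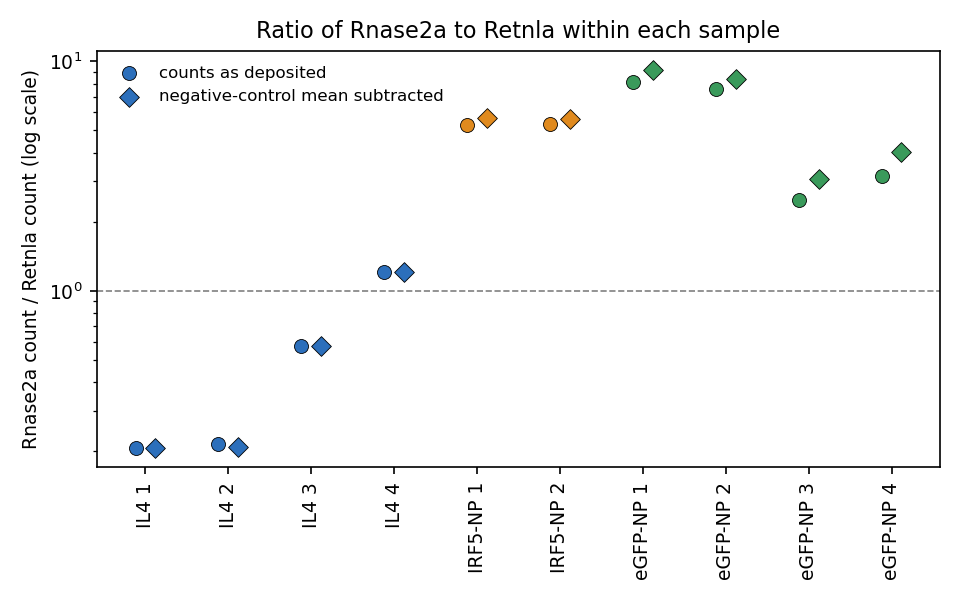
Ratio of Rnase2a to Retnla counts (log axis) in each sample with both genes above background, from the counts as deposited (circles) and after subtraction of the negative-control mean (diamonds), coloured by group. IL4 samples lie between 0.206 and 1.21 and nanoparticle-treated samples between 2.49 and 9.20.

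The probes of the relatives on the panel gave counts at or near background. Retnlb, the intestinal resistin-like protein RELMβ, had 8 to 17 counts and was above background in none of the 15 libraries, and Ear6 had 8 to 19 counts and was above background in none. Rnase2b had 17 to 43 counts and was above background in 6 of 15 libraries, 3 of them in IL4. Its counts overlapped between the standards, at 17 to 40 in MPLA and 24 to 43 in IL4. After scaling, the MPLA libraries lay below the IL4 libraries, as for 15.1% of all genes. The nearest, MPLA 4 and IL4 1, both stood at 4.50 log2 CPM. Only 1 MPLA library was above background and IL4 1 was not, so this order cannot be judged. The log2 difference of -0.89 did not pass the test (adjusted p = 0.0526 by edgeR). Probes may differ in efficiency, so these counts do not say how much less abundant a relative's RNA was than that of Rnase2a. Since eosinophils express these RNases, 8 eosinophil markers were examined. The granule protein genes Epx, Prg2 and Prg3, the IL-5 receptor gene Il5ra, Gata1 and Alox15 were above background in no library, including IL4. Siglecf, which some macrophages also express, was above background in 14 of 15 libraries, with 47 to 73 counts in MPLA, 37 to 352 in IL4, 70 to 386 with the eGFP cargo and 7 to 159 with the IRF5 cargo. It was lower in MPLA than in IL4, as were the 3 genes (log2 difference -2.34, adjusted p = 0.0388 by edgeR), although the counts overlapped through IL4 2, and it was not called in any nanoparticle comparison. That p counts the near-identical MPLA pairs as separate samples. The chemokine receptor gene Ccr3 was above background in 7 of 15 libraries, none of them MPLA, and its difference of -1.20 did not pass (adjusted p = 0.130). Summed over the 8 markers, counts were 134 to 187 in MPLA, 125 to 440 in IL4, 139 to 524 in eGFP-NP and 72 to 299 in IRF5-NP, so that the ranges of IL4 and eGFP-NP overlapped over most of their width. Other granulocyte lists were mixed. Of 12 neutrophil markers, 6 were above background in each MPLA library, 3 to 7 in IL4, 3 to 4 in eGFP-NP and 2 to 3 in IRF5-NP, with summed counts of 1869 to 3255, 295 to 831, 282 to 708 and 241 to 483. Ly6g was above background in no library, whereas the collagenase gene Mmp8 was in 13 and the alarmin gene S100a8 in 9. Of 8 mast cell and basophil markers, 1 to 3 were above background in a library, with summed counts of 376 to 500 in MPLA, 122 to 350 in IL4, 228 to 288 in eGFP-NP and 137 to 267 in IRF5-NP. Kit, Cpa3 and Fcer1a were above background in none, whereas Gata2 was in 12 and the tryptase gene Tpsb2 in 11. The part of such cells in the levels of the 3 genes was not tested.

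The wider IL-4 programme was followed in 44 panel genes from 5 lists. Between the standards, 21 of the 44 were lower and 2 higher in MPLA than in IL4 (47.7% and 4.55%, against the 14.2% and 12.2% of all genes given above), and their median log2 difference was -0.89 against -0.05 over all genes. The lists were chosen with results of these data known. These calls count the near-identical MPLA pairs as separate samples, and no fit with those pairs merged was run. The count of lower genes was 9, 13, 12 and 10 without MPLA 1, 2, 3 and 4 and 19, 25, 20 and 21 without IL4 1, 2, 3 and 4. Over all 754 genes it was 107, and it was 36, 52, 56 and 41 without MPLA 1, 2, 3 and 4 and 79, 153, 90 and 116 without IL4 1, 2, 3 and 4. Scaled to the housekeeping genes, 122 of all genes were lower and 45 higher, against 107 and 92 with TMM scaling, and the median of all genes moved to -0.32.

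By role, 1 of 5 receptor and signalling genes was lower in MPLA, the feedback inhibitor Socs1 (log2 difference -2.01, adjusted p = 0.00918 by edgeR), while the receptor chain Il4ra (-0.46) and the transcription factor Stat6 (0.03) did not pass. Of 7 transcription factors 4 were lower, among them Egr2 (-3.16), Pparg (-3.04) and Irf4 (-3.03). Of 16 other secreted products 6 were lower, among them the chitinase-like proteins Chil4 and Chil3 and the chemokines Ccl24 (-4.64), Ccl22 (-3.32), Ccl8 (-3.31) and Ccl11 (-2.67). Ccl24, Ccl22, Ccl11 and Irf4, like Chil3 and Chil4, were above background in no MPLA library, so the sizes of these differences rest on unmeasured MPLA levels. Chil3 and Chil4 are close copies whose probes may not tell them apart, and their counts ran nearly together. Of 9 surface receptors 5 were lower, led by the lectins Clec7a (-3.70) and Mrc1 (-2.92), and the scavenger receptor Stab1 was higher (1.21). Of 7 enzymes 5 were lower, among them the amino acid oxidase Il4i1 (-2.71), and the lipoxygenase Alox5 was higher (1.88).

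In the nanoparticle groups none of the 44 genes was called against IL4 by edgeR. At an unadjusted p under 0.05, 5 of 44 were lower in IRF5-NP (11.4%, against 4.38% of all genes) and 6 in eGFP-NP (13.6%, against 8.22%), and none was higher in either (against 2.65% and 2.92%). All libraries lay below all IL4 libraries for 4 of 44 genes in IRF5-NP (9.09%, against 4.38% of all genes) and for 5 in eGFP-NP (11.4%, against 6.90%). The list medians were -0.14 in IRF5-NP and -0.43 in eGFP-NP, against -0.14 and -0.08 over all genes. The chemokine gene Ccl24 had 132 to 312 counts in IL4 and 7 to 28 in the nanoparticle libraries, all of the latter below background. Its geometric mean in IL4 was at least 4.25-fold higher than the background limit of IRF5-NP and at least 6.24-fold higher than that of eGFP-NP. Low values beside IL4 were also found for the chemokine Ccl8 (-2.55 ± 0.63 in IRF5-NP and -3.50 ± 0.81 in eGFP-NP, SE) and for the prostaglandin-degrading enzyme Hpgd (-3.40 ± 0.75 and -3.68 ± 0.76). The lectin gene Mrc1 was 0.05 ± 0.91 in IRF5-NP and -0.95 ± 0.78 with the eGFP cargo, and Pparg -0.05 ± 0.88 and 0.61 ± 0.72. None of these passed the adjusted test. Between IRF5-NP and eGFP-NP none of the 44 was called, and their median was 0.33 against 0.10 over all genes.

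Chil3, which like Retnla was below background in all 4 MPLA libraries, had a different order in the nanoparticle groups. Its counts were 1258, 13, 2821 and 756 in IL4 1 to 4 and 10 to 14 in MPLA. They were 5084, 4874 and 13 in IRF5-NP 1, 2 and 4, and 10726, 10897, 296 and 291 in eGFP-NP 1 to 4. The stromal-low nanoparticle libraries thus held more Chil3 than any IL4 library, whereas the same libraries held less Retnla and Rnase2a than IL4 3. Chil3 was at background in IL4 2 and IRF5-NP 4. These were also the lowest libraries of their groups for Retnla and Rnase2a, which in IL4 2 were nevertheless well above background. The groups overlapped, and the log2 difference from IL4 was 1.56 ± 1.65 (SE) for eGFP-NP and 1.37 ± 1.65 for IRF5-NP, neither of which was called by edgeR.

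**Figure D4:**
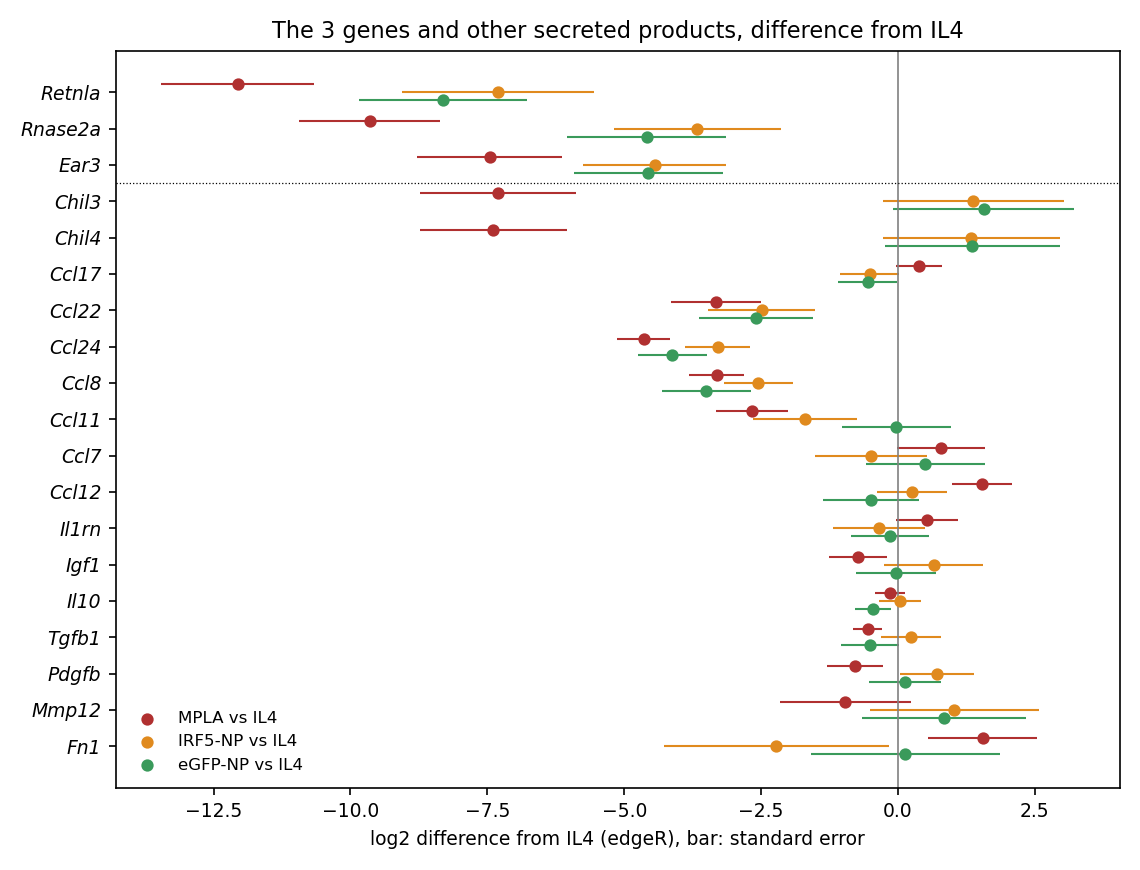
Fitted log2 difference from IL4 with its standard error (bar) for Retnla, Rnase2a, Ear3 and 16 other secreted products, for MPLA, IRF5-NP and eGFP-NP. Retnla lies lowest in all 3 comparisons, at -12.06, -7.31 and -8.31, and Chil3 and Chil4 lie below 0 in the MPLA comparison only. Values of genes at background in MPLA or a nanoparticle group rest on unmeasured levels there.

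Correlations across libraries describe how alike the 3 genes are, but their choice by the difference between MPLA and IL4 fixes a high value over libraries that include those groups. Over the 14 libraries, Pearson's r of log2 CPM was 0.940 between Retnla and Rnase2a, 0.917 between Retnla and Ear3 and 0.902 between Rnase2a and Ear3. Over the 10 IL-4-conditioned libraries, which still hold the 4 IL4 libraries used in the choice, it was 0.903, 0.855 and 0.818. None is independent of the choice. These values also describe libraries that include near-identical pairs, share group differences and, for Ear3, lie mostly at background. Among 598 genes above background in at least 3 libraries, those most like Retnla over 14 libraries were the eosinophil-attracting chemokine Ccl24 (r = 0.945), Rnase2a, the adhesion receptor Adgre5 (0.925) and Ear3. Those most like Rnase2a were the LIM-domain gene Crip1 (0.952), Retnla, Adgre5 (0.933), and the transcription factors Batf3 (0.931) and Irf4 (0.921). Those most like Ear3 were Retnla, the chemokine Ccl22 (0.907), Rnase2a, the sphingosine phosphate phosphatase Sgpp1 (0.884) and Ccl24 (0.882). Among 572 genes in the 10 IL-4-conditioned libraries, Ccl24 (0.927), Adgre5 (0.899) and the chemokine Ccl6 (0.887) stood nearest to Retnla besides Rnase2a and Ear3. Adgre5 (0.963), Ccl6 (0.954), Crip1 (0.937), Sesn1 (0.915) and Stat5a (0.911) stood nearest to Rnase2a. Ccl22 (0.909), Ccl6 (0.905), Sgpp1 (0.904), Retnla and Ccl24 (0.823) stood nearest to Ear3. By ranks (Spearman's rho) these 5 were 0.612, 0.77, 0.527, 0.83 and 0.721 in the same order, so the order depends on the measure. Over the same 10 libraries r with the stromal mean was -0.0763 for Retnla, -0.406 for Rnase2a and -0.209 for Ear3. Over all 14, with the MPLA libraries of highest stromal level, it was -0.413, -0.639 and -0.499.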

How the data were processed

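RNA of 15 BMDM samples in 4 groups was counted on the nCounter Myeloid Innate Immunity panel. The authors deposited raw counts of 768 probes (754 genes, 6 positive and 8 negative controls), not normalized; their methods name housekeeping normalization, log2 values and t-tests. Lane and cartridge were not given in the sources used here, so no assay batch was tested. The members and gene lists were chosen with earlier results of these data known. Differences come from edgeR's quasi-likelihood test (edgeR 4.0.16, R 4.3.3; TMM scaling, only the 2 groups compared, no filter on low counts, two-sided, Benjamini-Hochberg over all 754 genes, called at an adjusted p under 0.05). For the 3 members no p is given against IL4, whose libraries chose them. Standard errors are the log2 difference over the square root of F. Levels are log2 CPM (TMM factors, prior count 2). The fits were also run on simulated counts without near-identical libraries, which gives no power or error rate for these samples. Samples were compared within groups by a chi-square test over genes whose counts summed to 40 or more (5 of 21 pairs nearly identical, under 5.0 per degree of freedom; 1.09 and p = 0.0817 for the merged eGFP-NP 1 and 2).

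Named were the 3 members, the called genes of each list (where more than 4 or none were called, those with the largest increases and decreases), and the 5 genes most correlated with each member. Ccl24, Ccl22, Ccl8 and Ccl11 between the standards, Mrc1 and Pparg in the nanoparticle comparisons, and Il4ra and Stat6 were chosen after their values were seen. Some genes that this rule names are not reported here. Gene names were those deposited: 744 matched a RefSeq symbol of GRCm38.p6, 9 a synonym and 1 neither. Positions and promoter sequences are RefSeq's, and the panel's probe sequences were not used here. Deviations from the group means correlated at 0.823, 0.821 and 0.818 between same-numbered IRF5-NP and eGFP-NP samples (numbers 1, 2 and 4). Between same-numbered samples of IL4 and either group they correlated at -0.816 to 0.318. Differently numbered samples were not compared and near-identical pairs make these values repeat each other, so no pairing by number is shown. The labels do not say what a number marks. Alternatives were DESeq2 1.42.0, limma 3.58.1 on log2 CPM, the methods' t-test, other scalings, background subtraction, a filter, other merges, a stromal covariate, the replicate block and leaving out each sample. Between MPLA and IL4 only housekeeping scaling and leaving out each sample were run, so the near-identical MPLA pairs were not merged there.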

Additional observations from a re-analysis of the deposited data

Results flagged for a closer look

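Rnase2a in IL4 was set apart by 1 sample far from the others. On the log2 CPM scale IL4 2 stood at 7.90 against 13.25 to 13.86 in IL4 1, 3 and 4, a gap of 0.899 of the group's range, above Dixon's critical value for 4 samples. The same measure was 0.524 for Retnla and 0.506 for Ear3 in IL4, below that value. Chance flags about 1 in 20 groups.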

How the results depend on the processing

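The fitted differences of Retnla, Rnase2a and Ear3 from IL4 were negative under all 21 alternatives run for each gene in IRF5-NP and in eGFP-NP, with Retnla between -6.45 and -8.87 (IRF5-NP) or -7.39 and -8.89 (eGFP-NP), Rnase2a between -3.11 and -6.00 or -4.08 and -5.98, and Ear3 between -2.37 and -10.84 or -2.69 and -11.14. Ear3 depended most on 1 library: without IL4 3 it was -2.74 in IRF5-NP (all libraries -4.45) and -2.69 in eGFP-NP (-4.56). Ear3 was below background in every nanoparticle library, so its fitted values are no measured differences. The values -10.84 and -11.14 came from subtraction of the negative controls. The IL4 libraries chose the 3 genes for their high values, so no p is given for the differences from IL4. Neither their constant sign nor a setting past the threshold is support for them. The settings past it were DESeq2 for Retnla (-7.13) and Ear3 (-4.40) in IRF5-NP and for Retnla (-8.13), Ear3 (-4.45) and Rnase2a (-4.40) in eGFP-NP, and edgeR scaled to the positive controls for Retnla (-7.00) and Ear3 (-4.98) in IRF5-NP and Retnla (-8.89) in eGFP-NP; this scaling moved the median difference of all genes to -0.75 and -1.18, from -0.14 and -0.08. Retnla in eGFP-NP also passed with all 4 groups in 1 fit (-8.18), with every sample separate (-8.10) and without IL4 2 (-8.58); leaving out each other library gave -7.45 to -8.72, not past it. None of the 3 genes passed in the fits of the report or in the other settings run. The cause of these differences between settings was not tested. Over all genes DESeq2 called 7 in IRF5-NP against eGFP-NP, 19 in IRF5-NP against IL4 and 53 in eGFP-NP against IL4, where edgeR called 0. With other edgeR settings the highest counts were 16 (stromal covariate), 12 (positive controls) and 17 (all groups in 1 fit).

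Between IRF5-NP and eGFP-NP, where none of the 3 genes was called, Retnla ranged from 0.06 to 1.88 and Rnase2a from -0.57 to 2.37 over 20 alternatives. The sign of the difference turned for Rnase2a with the replicate block (-0.39, pairing same-numbered samples) and with the stromal covariate (-0.57), and for Ear3 with every sample separate (-0.036), with the stromal covariate (-0.057) and without eGFP-NP replicate 4 (-0.32; 0.31 without eGFP-NP 1-2). The replicate block changed no call on the 3 genes in the 3 nanoparticle comparisons, the ones it was run for. Scaling to the positive controls or housekeeping genes moved the median of all genes there to 0.61 and 0.38, from 0.10. Of the 44 list genes, 1 was higher in MPLA than in IL4 with housekeeping scaling instead of 2 (45 instead of 92 of all genes), and 0 to 4 when a library was left out (38 to 142 of all genes); the lower genes, 21 in all libraries, numbered 9 to 25 when a library was left out (36 to 153 of all genes, from 107). With negative controls subtracted, the mean log2 ratio of Rnase2a to Retnla in IRF5-NP was 2.50 instead of 2.41. Levels of Retnla and Rnase2a in IL4 and the nanoparticle groups, and of Ear3 in IL4, moved by less than 1 SD under housekeeping or positive-control scaling; other levels lie at background. The depth of IRF5-NP 4 limits what can be seen in that library.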
